A study of Mus musculus with 8 samples.

Results

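The 7 genes described here are the opioid peptide precursors Penk, Pdyn and Pnoc and the opioid receptors Oprm1, Oprk1, Oprd1 and Oprl1. They were taken by gene symbol from a table of 29442 genes, and all 7 were present and had counts in every library. The tissue sequenced was ventral hippocampus, from C57BL/6 J mice that were all female and 6 to 8 weeks old. In the DHEA group, 4 mice received dehydroepiandrosterone (DHEA), a precursor of androgens and oestrogens, under the skin at 30 mg/kg/day for 21 days. In the sesame oil group, 4 mice received the vehicle alone for the same time. The libraries labelled DHEA were HipR3, HipR4, HipR7 and HipR11, and those labelled sesame oil were HipR5, HipR9, HipR10 and HipR16. Values of single libraries are given below in this order. The total count per library was 35748416 to 38038361 with the DHEA label and 31483772 to 35418297 with the sesame oil label. The signs of the fold changes calculated with the deposited labels were opposite to those in the study's own list of changed genes, for every gene of that list. For the genes of that list that the study measured by qRT-PCR in further hippocampal tissue, it reported the direction of its list. Every direction below follows the deposited labels, and which of the 2 groups is which was not settled here.

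Penk encodes the precursor of the enkephalins, Pdyn that of the dynorphins and Pnoc that of nociceptin. The peptides are cut from the precursors by prohormone convertases, and they act on the δ (Oprd1), κ (Oprk1), μ (Oprm1) and nociceptin (Oprl1) receptors, which couple to inhibitory G proteins, lower cyclic AMP, open inwardly rectifying potassium channels and close presynaptic calcium channels. In the hippocampus, dynorphin is a known product of dentate granule cells, whereas enkephalin, nociceptin and several of the receptors are known from interneurons.

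Of the 7 genes, Oprd1 was the only one that differed between the groups at an unadjusted p under 0.05, and it was lower in the libraries labelled DHEA. In CPM (counts scaled to a library of 1000000 and normalized by the TMM method), Oprd1 was 19.8, 18.6, 22.3 and 21.6 in the libraries labelled DHEA. It was 25.6, 23.3, 24.2 and 28.8 in those labelled sesame oil. Every library labelled DHEA was therefore below every library labelled sesame oil, and HipR16 was the highest. The means were 20.6 ± 1.68 and 25.5 ± 2.42 CPM (SD, n = 4 each), and the log2 fold change was -0.31 (standard error 0.093, 95% interval -0.50 to -0.11). The unadjusted p was 0.00389 and the adjusted p 0.296 in the quasi-likelihood test of edgeR, adjusted by the Benjamini-Hochberg method over 27612 genes. The two-sided exact permutation test of the means gave p = 0.0286, the smallest that 4 against 4 libraries allow. The labels name no litter, cage or batch, although the study states that littermates served as controls. It also states that the tissue was taken after behavioural tests, among them forced swimming and tail suspension.

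Across all genes tested, 4.49% were lower and 4.82% were higher at the same unadjusted p. Groups did not overlap, with the libraries labelled DHEA lower, in 2.62% of the genes and, with them higher, in 2.42%. A 2-fold or larger difference in either direction with an unadjusted p under 0.05 was seen in 1.6%, and none of the 7 genes was among these. After adjustment, 0% of the genes (0 genes) passed 0.05 in edgeR, while 2571 had an unadjusted p under 0.05 and DESeq2 gave 153 genes with an adjusted p under 0.05. In DESeq2 the adjusted p of Oprd1 was 0.0681. Thus, Oprd1 was 1 of the 1239 genes that were lower at an unadjusted p under 0.05, and its difference did not pass adjustment in either tool. In this bulk tissue, fewer cells that express a gene and less RNA per cell cannot be told apart.

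**Figure D1:**
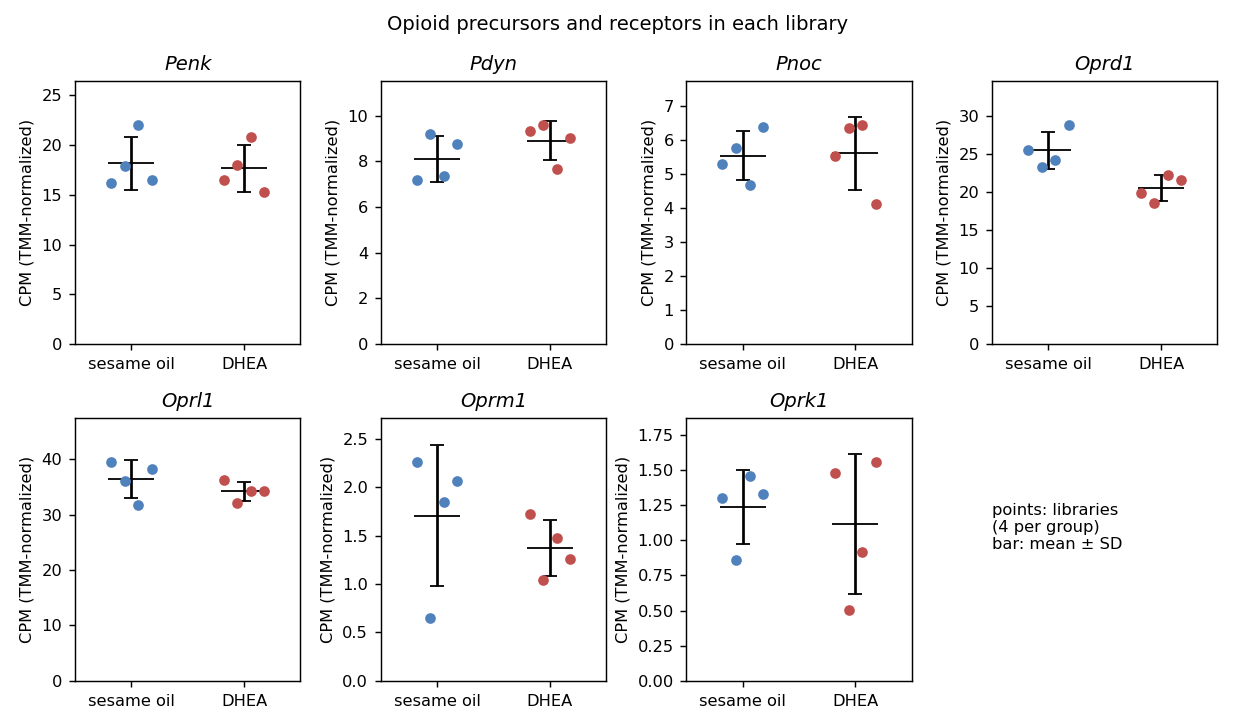
TMM-normalized CPM of each gene (vertical axes from 0) in the 4 libraries labelled sesame oil (blue) and the 4 labelled DHEA (red), with the mean and SD in black. The groups are apart for Oprd1 (18.6 to 22.3 against 23.3 to 28.8 CPM) and overlap for the other 6 genes.

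The upstream sequence of Oprd1 is shown because this receptor is the gene on which the comparison turns, and that of Oprl1 because it is the most abundant receptor and did not pass the test. Both are the 250 bases before a transcription start in RefSeq (GRCm38.p6), 5′ to 3′ on the strand of the gene, and the capitals mark matches to the GC box GGGCGG on either strand. Oprd1 lies on the minus strand at chr4:132144487-132144736 and Oprl1 on the plus strand at chr2:181714766-181715015.
Oprd1: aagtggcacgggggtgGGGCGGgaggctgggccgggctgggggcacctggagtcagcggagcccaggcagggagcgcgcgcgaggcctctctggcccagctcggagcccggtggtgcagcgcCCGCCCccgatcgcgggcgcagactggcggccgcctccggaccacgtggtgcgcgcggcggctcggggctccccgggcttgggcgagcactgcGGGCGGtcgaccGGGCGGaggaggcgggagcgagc
Oprl1: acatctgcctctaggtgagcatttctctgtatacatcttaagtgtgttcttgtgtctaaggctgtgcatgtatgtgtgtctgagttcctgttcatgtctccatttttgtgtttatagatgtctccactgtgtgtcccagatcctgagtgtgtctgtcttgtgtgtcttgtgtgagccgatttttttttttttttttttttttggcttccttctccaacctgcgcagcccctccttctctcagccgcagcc
The Oprd1 window was 80% G and C, at or above 98.9% of 32851 windows of the same length, and held 4 matches. The Oprl1 window shown was 44.4% G and C and held none, and the other 2 Oprl1 windows were 54.8% and 48.8% (median of all windows 52.4%). Among all windows, 32.7% held the GC box. The reference gave windows for Pdyn, Oprm1, Oprd1 and Oprl1, and 0 of the windows of the other 3 held it. Neither TGACGTCA, the cAMP response element (1.55% of all windows), nor TGANTCA, the AP-1 site (6.75%), was found in any window of the 4 genes on either strand. The half-site TGTTCT of steroid receptors, carried by 16.1% of all windows, was found in 2 of the 3 Oprl1 windows and in none of the others. These are matches of letters, not binding sites.

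None of the 3 precursors differed at an unadjusted p under 0.05, and their groups overlapped. Penk, the enkephalin precursor, was 16.5, 18.01, 20.8 and 15.3 CPM in the libraries labelled DHEA and 16.2, 17.8, 22.01 and 16.5 CPM in the others. Its log2 fold change was -0.04 (standard error 0.12, 95% interval -0.29 to 0.21, unadjusted p = 0.734 in edgeR's test). HipR7 was the highest library with the DHEA label and HipR10 with the sesame oil label, and the rest lay close together. The gene overlaps A830012C17Rik on the opposite strand by 233 of its 1634 exonic bases, and whether the counting used the strand is not given in the sources used here.

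Pdyn, the dynorphin precursor, was 9.34, 9.59, 7.66 and 9.03 CPM in the libraries labelled DHEA. In those labelled sesame oil it was 7.18, 9.19, 7.35 and 8.76 CPM. HipR3 and HipR4 were above all libraries labelled sesame oil, whereas HipR7 lay among them. The log2 fold change was 0.13 (standard error 0.13, 95% interval -0.14 to 0.41, unadjusted p = 0.318 in edgeR's test). Pnoc, the nociceptin precursor, was 5.52, 6.34, 6.44 and 4.11 CPM in the libraries labelled DHEA and 5.28, 5.75, 4.68 and 6.38 CPM in the others. Its log2 fold change was 0.02 (standard error 0.17, 95% interval -0.33 to 0.37, unadjusted p = 0.905 in edgeR's test), and HipR11 was the lowest of all 8 libraries.

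The other receptors did not pass the test either. Oprl1, the nociceptin receptor, was 36.2, 32.0, 34.1 and 34.3 CPM in the libraries labelled DHEA. It was 39.5, 36.0, 31.7 and 38.1 CPM in those labelled sesame oil, and HipR10 was the lowest of all. The log2 fold change was -0.09 (standard error 0.081, 95% interval -0.26 to 0.08, unadjusted p = 0.290 in edgeR's test). Its spread over the 8 libraries was small, at a coefficient of variation of 7.84%.

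Oprm1, the μ receptor, and Oprk1, the κ receptor, were at the lower end, with 22 to 75 and 18 to 57 counts per library. Oprm1 was 1.72, 1.04, 1.47 and 1.26 CPM in the libraries labelled DHEA and 2.26, 0.652, 1.85 and 2.06 CPM in those labelled sesame oil. HipR9 was the lowest of all libraries and the other 3 labelled sesame oil were the highest. The log2 fold change was -0.31 (standard error 0.33, 95% interval -1.01 to 0.39, unadjusted p = 0.362 in edgeR's test), and it ran from -0.58 without HipR9 (unadjusted p = 0.0532 in the same test) to -0.15 without HipR5 (unadjusted p = 0.693). Oprm1 overlaps Ipcef1 on the opposite strand by 96 of its 8037 exonic bases. Oprk1 was 1.48, 0.505, 0.915 and 1.56 CPM in the libraries labelled DHEA and 1.30, 0.860, 1.46 and 1.33 CPM in the others. Its log2 fold change was -0.15 (standard error 0.35, 95% interval -0.88 to 0.59, unadjusted p = 0.677 in edgeR's test). Over the 8 libraries the coefficient of variation was 35.2% for Oprm1 and 31.8% for Oprk1, the largest of the 7 genes, and counting error alone gives 13.7% and 15.6%. For Oprd1 these values were 14.2% and 3.54%.

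**Figure D2:**
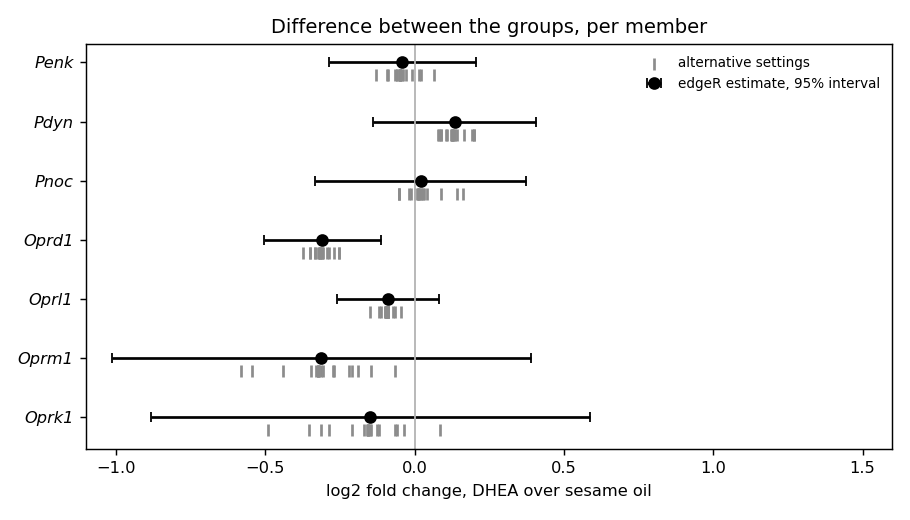
Log2 fold change of DHEA over sesame oil for each gene (black point, edgeR estimate with its 95% interval) and the estimates under the alternative settings (grey ticks). The interval lies below 0 for Oprd1 and spans 0 for the other 6, and it is widest for Oprm1 and Oprk1.

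Of the 7 log2 fold changes, 5 were negative and 2 positive, with a median of -0.09, while the median over all genes tested was 0.01. Penk, Pnoc and Oprk1 changed sign when single libraries were left out. For Oprd1 the unadjusted p stayed under 0.05 in all 18 alternative fits, from 0.00145 to 0.0204, and the adjusted p ran from 0.0681 to 0.727. The permutation p rose to 0.0571 without HipR3, HipR4 or HipR16, each in turn.

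The levels of the 7 genes can be compared only per length, so the deposited FPKM values (fragments scaled by transcript length and by library size) were used. Penk was the most abundant at a mean of 11.2 FPKM over the 8 libraries, followed by Oprl1 at 6.17, Pdyn at 3.34, Oprd1 at 3.05, Pnoc at 2.35, Oprm1 at 0.266 and Oprk1 at 0.248. Neighbours in this order were compared within each library on log2(FPKM + 0.01) by a two-sided exact sign-flip permutation test, adjusted over the 6 pairs. Penk was above Oprl1, and Oprl1 above Pdyn, in 8 of 8 libraries (adjusted p = 0.0156 in each exact permutation test). Pnoc was above Oprm1 in 8 of 8, by 3.17 on the log2(FPKM + 0.01) scale and by 1.40 on log2(FPKM + 1). Oprd1 was above Pnoc in 7 of 8 libraries (adjusted p = 0.0352, exact permutation test), but this rose to 0.0703 in 6 of the 8 fits without 1 library. Pdyn and Oprd1 (adjusted p = 0.319, exact permutation test), and Oprm1 and Oprk1 (adjusted p = 0.617), were not told apart, and in both pairs the order was seen in 5 of 8 libraries. Pdyn was above Oprd1 in 4 of 4 libraries labelled DHEA (means 3.46 and 2.70 FPKM) but in 1 of 4 labelled sesame oil (3.22 and 3.40 FPKM), so the order of these means turned between the groups.

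**Figure D3:**
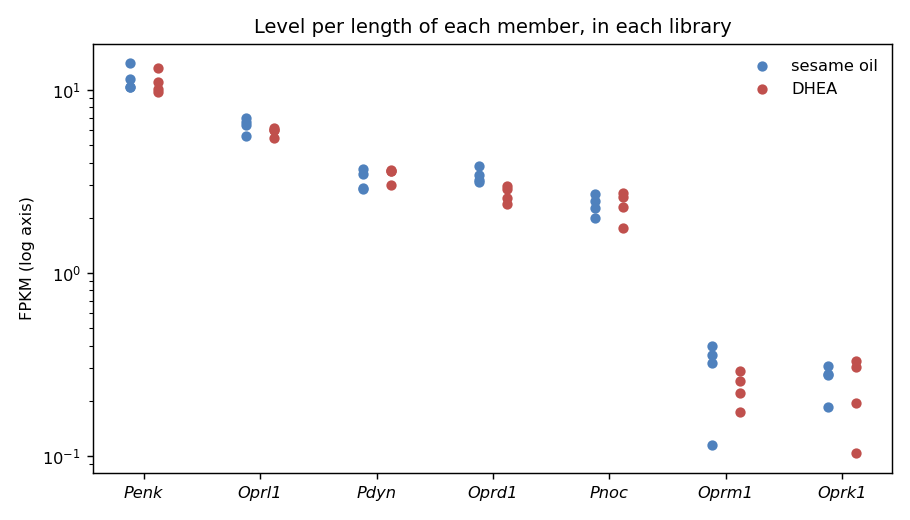
FPKM of each gene (log axis) in every library, in order of the mean over the 8 libraries. Penk is highest (mean 11.2 FPKM), and Oprm1 and Oprk1 (0.266 and 0.248 FPKM) lie far below the other 5 genes.

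Penk made up 65.3 ± 2.89% of the summed precursor FPKM in the libraries labelled DHEA and 67.1 ± 4.84% in those labelled sesame oil (SD, n = 4 each). Among the receptors, Oprl1 made up 65.3 ± 1.70% and 61.8 ± 2.74% of the sum, and Oprd1 29.7 ± 1.72% and 32.8 ± 1.69%. The μ and κ receptors held the small remainder, with Oprm1 at 2.57 ± 0.430% and 2.84 ± 1.12%. The summed receptor FPKM was 9.09 ± 0.672 and 10.4 ± 0.863. The precursor sum was 16.8 ± 1.70 and 17.1 ± 1.46 FPKM.

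Next, the genes that act with the opioid peptides and receptors were examined in 7 lists with 58 genes, all of which were tested. At an unadjusted p under 0.05, 9 of the 58 (15.5%) were lower in the libraries labelled DHEA and 1 (1.72%) was higher, against 4.49% and 4.82% of all genes. Among the 12780 genes whose mean count was 100 or more, which include 55 of the 58, the shares were 7.60% lower and 8.08% higher. None passed adjustment in edgeR, and the median log2 fold change of the 58 was -0.02. The count that was lower depended on single libraries, being 5 without HipR4 or HipR16 and 14 without HipR7. In the other alternative fits it was 6 to 11, and it was 6 with the GC trend of the libraries removed, as described below. The lists were chosen with earlier results of these data known.

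The effectors of inhibitory G protein signalling held the most of these, with 5 of 12 lower, 0 higher and a median log2 fold change of -0.16. Kcnj6, a subunit of the G protein-gated potassium channel, was 216, 207, 226 and 234 CPM in the libraries labelled DHEA and 240, 238, 263 and 238 CPM in those labelled sesame oil. These groups did not overlap, and the log2 fold change was -0.15 (standard error 0.061, unadjusted p = 0.0259 in edgeR's test). Cacna1a, the pore of the P/Q-type calcium channel, was 117, 116, 144 and 142 CPM against 149, 146, 153 and 157 CPM, again without overlap (log2 fold change -0.22, unadjusted p = 0.00967 in edgeR's test). HipR3 and HipR4 were well below the other libraries, while HipR7 and HipR11 were just below the lowest library labelled sesame oil. Kcnj9, another potassium channel subunit, and the adenylyl cyclases Adcy3 and Adcy6 had log2 fold changes of -0.20, -0.16 and -0.32, with overlapping groups. With the GC trend of the libraries removed, as described below, Kcnj9 and Adcy3 did not stay under 0.05 (unadjusted p = 0.0549 and 0.103 in edgeR's test). The most abundant effector per length was the adenylyl cyclase Adcy1, at 90.3 FPKM, with a log2 fold change of 0.06 (unadjusted p = 0.423 in edgeR's test).

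Of the 11 regulators of the receptors, only Arrb2 had an unadjusted p under 0.05. It encodes β-arrestin 2, which binds phosphorylated receptors and ends their coupling to G proteins. Arrb2 was 34.1, 32.5, 37.2 and 36.9 CPM in the libraries labelled DHEA and 44.0, 42.0, 42.1 and 43.0 CPM in those labelled sesame oil. The groups were apart, as for Oprd1, and the log2 fold change was -0.28 (standard error 0.072, unadjusted p = 0.000929 and adjusted p = 0.245 in edgeR's test). Rgs4, a GTPase activator and the most abundant of this list per length (56.9 FPKM), had a log2 fold change of 0.03.

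Among the 5 inhibitory G protein α subunits, Gnai2 had the highest mean over the 8 libraries, at 75.2 FPKM. Its log2 fold change was 0.00 (95% interval -0.12 to 0.12). Gnao1, named after its values were seen, was close at 74.4 FPKM. In the libraries labelled sesame oil it was just above Gnai2, at 75.8954 against 75.8796 FPKM. None of the 5 subunits was called. Likewise, none of the 8 genes of peptide processing was called, although Pcsk1n was once the GC trend of the libraries, described below, was removed. Rnpep, an aminopeptidase gene named here after its values were seen, was lower without overlap, at 29.4 ± 1.56 against 32.8 ± 2.06 CPM (SD, n = 4 each), with an unadjusted p of 0.0555 in edgeR's test and 0.0286 in the exact permutation test. The most abundant was Cpe, a carboxypeptidase that trims cut peptides, with 1078 FPKM and a log2 fold change of 0.10 (unadjusted p = 0.139 in edgeR's test). Among 9 genes of peptide breakdown, the aminopeptidase gene Lnpep was higher, at 81.3 ± 3.51 against 73.1 ± 3.99 CPM (SD, n = 4 each), with overlapping groups. Its unadjusted p in edgeR's test was 0.0278, and 0.186 with the GC trend removed. Without HipR3, 0 of the 58 pathway genes were higher. Npepps, the most abundant gene of peptide breakdown at 37.0 FPKM, had a log2 fold change of -0.01.

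Of 9 transcriptional regulators, the immediate early genes Fos (log2 fold change -0.47, unadjusted p = 0.0307 in edgeR's test) and Junb (-0.24, unadjusted p = 0.0385) were lower, with overlapping groups. Jun, the most abundant at 28.9 FPKM, had a log2 fold change of -0.12 and did not pass. Of the 4 related opioid genes, Pomc, the precursor of β-endorphin, was lower, with overlapping groups. Its log2 fold change was -1.16 (unadjusted p = 0.0269 in edgeR's test, 0.286 in the exact permutation test). The study's own qRT-PCR, on further hippocampal tissue, gave Pomc as higher with DHEA. For every gene it measured this way, Pomc among them, the study reported the direction of its own list. Those directions are opposite to the ones by the deposited labels. In the libraries labelled DHEA, Pomc was 1.05, 1.21, 0.915 and 0.575 CPM, and in those labelled sesame oil 0.513, 1.39, 4.93 and 1.49 CPM. HipR10 was thus far above all others, and HipR5 was the lowest of all 8 libraries. Ogfrl1, the most abundant of this list at 47.4 FPKM, had a log2 fold change of 0.11.

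**Figure D4:**
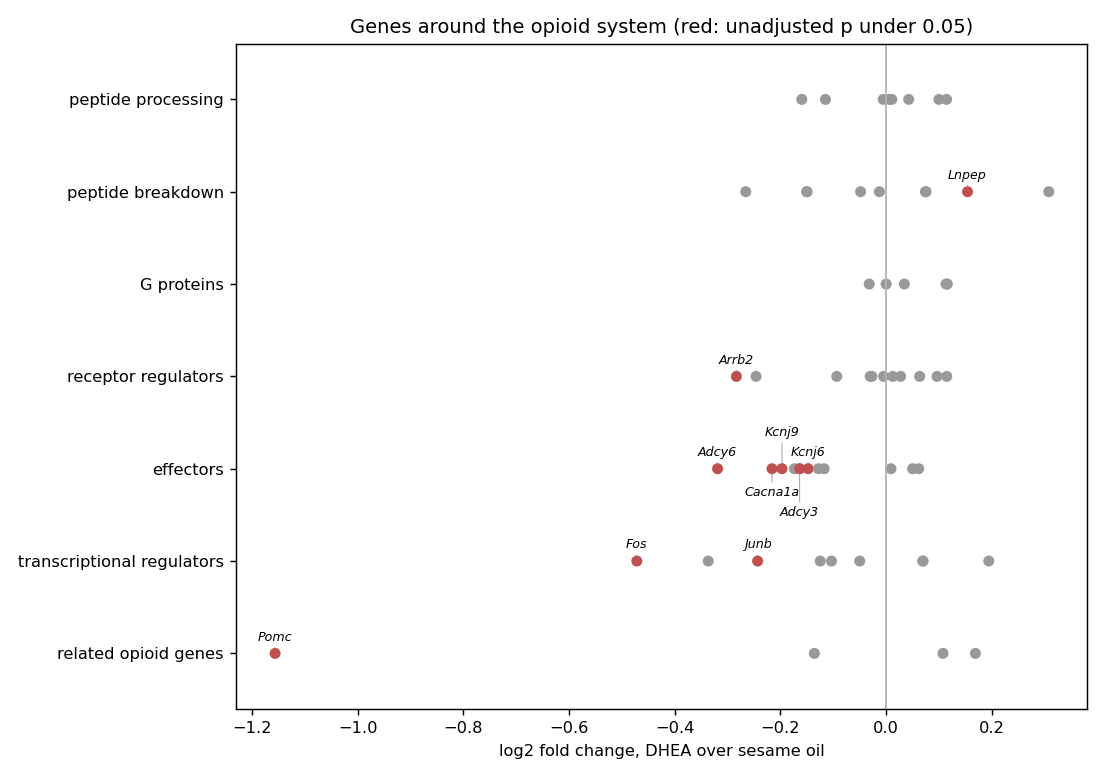
Log2 fold change of DHEA over sesame oil for the 58 genes in 7 lists, 1 point per gene, with genes at an unadjusted p under 0.05 in red and named. Red points lie left of 0 for 9 genes, 5 of them effectors, and right of 0 for Lnpep.

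HipR10 also held the most RNA of anterior pituitary genes. The 8 markers of this gland, Pomc among them, summed to 3.37, 1.85, 2.14 and 2.35 CPM in the libraries labelled DHEA and to 3.53, 6.91, 30.3 and 3.62 CPM in those labelled sesame oil, without overlap. Prl, the prolactin gene and the most abundant, was 0.0269, 0, 0.0832 and 0.219 CPM against 0.543, 3.32, 16.6 and 0.793 CPM. Gh, the growth hormone gene, was 0 in HipR3, HipR4 and HipR7, and Fshb was at 0 in all 8 libraries. Lhb and Tshb, named after their values were seen, did not follow Gh and Prl. Lhb was 2.29, 0.645, 1.03 and 1.45 CPM against 2.32, 0.682, 1.57 and 0.889 CPM (log2 fold change -0.01). It made up most of the sum in HipR3, HipR11 and HipR5, so the sum is not a measure of this gland alone. Whether the groups overlap without Lhb was not tested. Tshb was higher, but at only 0 to 4 counts per library. Gh, Prl and Pomc were the 3 markers called, and the part of this tissue in the value of Pomc was not tested.

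Markers of the labelled tissue were present in every library. The 8 dentate granule cell markers summed to between 599 and 751 CPM, with C1ql3 the most abundant (183 CPM), of which 2 (C1ql3 and Tdo2) were higher and 1 (Plk5) lower. CA1 markers summed to between 478 and 600 CPM, led by Mpped1, with 1 of 6 higher. CA3 markers, led by Nectin3, were between 177 and 196 CPM, also with 1 of 6 higher. Markers of the ventral hippocampus, led by Nnat, were between 303 and 484 CPM, with 0 of 6 called. The 5 general neuron markers, led by Snap25, summed to 4751 ± 195 and 4826 ± 222 CPM (SD, n = 4 each). Of these, Rbfox3 was lower without overlap, at 221 ± 5.65 against 247 ± 5.73 CPM (unadjusted p = 0.00781 in edgeR's test, 4 libraries a group). None of the 16 interneuron markers was called, and their sums were 1605 ± 70.03 and 1626 ± 84.2 CPM.

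Oligodendrocytes are the myelin-forming cells. All 6 of their markers were higher in the libraries labelled DHEA at an unadjusted p under 0.05, with Mbp the most abundant. Their sum was 6163, 7802, 6087 and 6283 CPM in the libraries labelled DHEA and 4933, 5931, 4909 and 4159 CPM in those labelled sesame oil, without overlap. HipR4, the highest, had the lowest value of Oprd1, and HipR16, the lowest, had the highest value of Oprd1. Of the astrocyte markers, led by Slc1a3, 3 of 5 were higher, as were 1 of 4 in microglia (P2ry12) and 1 of 3 in endothelium (Pecam1). The part of these cells in the values of Oprd1, Arrb2 and the effectors was not tested.

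Few markers of neighbouring regions were called. Of the neocortex markers, led by Tle4, Fezf2 was the 1 of 6 that was lower, and Rora, the most abundant of the thalamus list, was the 1 of 6 that was higher. The thalamus list summed to 181 ± 25.2 and 151 ± 17.8 CPM (SD, n = 4 each), with overlapping groups, and 5 of its 6 log2 fold changes were positive. The neocortex list summed to 148 ± 6.48 and 153 ± 15.6 CPM, with HipR16 the highest of all libraries at 175 CPM. The striatum list, led by Ppp1r1b and sharing Rgs9 with the receptor regulators, had 0 of 8 called and sums of 142 ± 13.2 and 142 ± 6.60 CPM. The habenula list, led by Tac2, and the hypothalamus list, led by Pmch, were low, at up to 3.62 and 3.32 CPM, with 0 called. The choroid plexus list had 0 of 6 called, but its sum, mostly Ttr, ran from 92.0 CPM in HipR4 to 4437 CPM in HipR3.

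The libraries also differed with the GC content of the transcripts. The Pearson correlation across genes between GC content and a gene's deviation from its mean log2 CPM was -0.11 to -0.00445 among the 4 libraries with the DHEA label, whereas the 4 with the sesame oil label had 0.06 to 0.14, so the groups did not overlap. Genes are not independent replicates, so this is a description. In bins of equal size, the median log2 fold change went from 0.08 in the bin lowest in GC to -0.04 in the highest. The longest transcript of Oprd1 was 54.9% G and C, at or above 77.1% of the genes. With the trend removed from each library, a step chosen after the data were seen, the log2 fold change of Oprd1 was -0.29 (standard error 0.091, unadjusted p = 0.00583 and adjusted p = 0.383 in edgeR's test), and the groups still did not overlap. Of the 9 pathway genes that were lower, Arrb2, Kcnj6, Cacna1a, Adcy6, Fos and Pomc stayed under 0.05, and Kcnj9 (0.0549), Adcy3 (0.103) and Junb (0.0914) did not. Lnpep, low in GC at 40.3%, also did not (unadjusted p = 0.186 in edgeR's test). The peptide processing gene Pcsk1n, which was not called before, was higher with the trend removed (log2 fold change 0.15, unadjusted p = 0.0472 in the same test of edgeR, against 0.11 and 0.114 without this step).

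**Figure D5:**
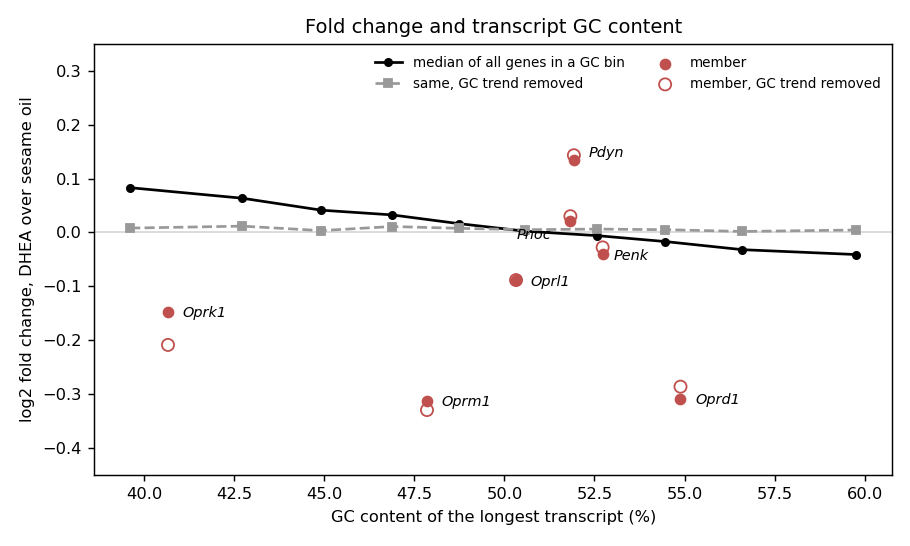
Median log2 fold change of all genes in 10 bins of transcript GC content (black, and grey with the trend removed) and the 7 genes (red, and open circles with the trend removed). The medians go from 0.08 to -0.04, and Oprd1 stays well below them, at -0.31 and -0.29.

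Finally, it was asked which genes varied together over the 8 libraries. None of the 21 pairs of the 7 genes passed adjustment by Pearson's r (smallest adjusted p = 0.564, 0 with an unadjusted p under 0.05, exact permutation test) or by Spearman's rho (smallest adjusted p = 0.403). By rho, Pdyn with Oprd1 was the largest (rho = -0.76, exact permutation p = 0.0368, r = -0.51, exact permutation p = 0.196), with r = -0.30 after the group means were subtracted and -0.37 without HipR5 and HipR10. By r over all 8 libraries, the largest was Pnoc with Oprk1 (Pearson's r = -0.65, exact permutation p = 0.0784, Spearman's rho = -0.64, exact permutation p = 0.0962). Its r was -0.66 after the group means were subtracted and -0.51 without HipR10 and HipR11, the libraries farthest from the median of Pnoc. Oprd1 and Oprl1 had r = 0.57 (exact permutation p = 0.134, rho = 0.45, exact permutation p = 0.267), which was 0.17 without HipR4 and HipR16.

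Against the interneuron, dentate granule cell, CA1 and ventral hippocampus lists, none of the 28 relations passed adjustment (smallest adjusted p = 0.633) and 1 had an unadjusted p under 0.05 in the exact permutation test. This was Oprl1 with the interneuron list (r = 0.75, exact permutation p = 0.0349, rho = 0.71, exact permutation p = 0.0576), with r = 0.80 within groups and 0.68 without HipR5 and HipR10. Oprd1 ran against the dentate granule cell list (r = -0.70, exact permutation p = 0.0569, rho = -0.55, exact permutation p = 0.171). This relation was -0.91 within groups and -0.18 without HipR4 and HipR16, the libraries farthest from the median of Oprd1. The group means were not subtracted for the latter value, so these values are not of the same measure.

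Among the 12779 other genes whose mean count was 100 or more, those whose log2(CPM + 0.5) followed each gene most closely over the 8 libraries were ranked, as a description. For Oprd1 they were Flrt1 (r = 0.996), Slc26a4 (0.987) and Shank2 (0.972), with log2 fold changes of -0.29, -0.21 and -0.27. Flrt1 encodes a membrane adhesion protein and Shank2 a scaffold of excitatory synapses. For Penk they were Ikzf4, Nipsnap1 and Slc37a1 (r = 0.934 to 0.921), for Pdyn Ppih, Gm41305 and Zfp825 (0.953 to 0.946) and for Pnoc Rlbp1, Gm5141 and Dok5 (0.954 to 0.940). For Oprl1 they were Ppp1r10, Pdcd7 and Cntn4 (0.978 to 0.953). Oprm1 and Oprk1, with mean counts under 100, were not ranked.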

How the data were processed

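Total RNA of the ventral hippocampus of 8 female mice was sequenced as paired-end reads. Per the labels and the submitters' processing notes, reads were cleaned with fastp, aligned to GRCm39 with HISAT2 and counted with HTSeq. The authors deposited whole-number counts per gene without normalization and FPKM values calculated per gene and library. Replicates were not pooled, and no pair of libraries of the same group agreed within sampling noise.

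Counts of the 27612 genes with at least 1 count were normalized by TMM and tested by edgeR 4.0.16 in R 4.3.3 (quasi-likelihood test, prior count 0.125, Benjamini-Hochberg adjustment over all genes). DESeq2 1.42.0, the study's tool, and limma 3.58.1 on log2(FPKM + 1) and log2(FPKM + 0.1) were alternatives. Other alternatives were RLE size factors, at least 10 counts, filterByExpr, a prior count of 1, robust moderation and leaving libraries out. The removal of the GC trend was chosen after the data were seen. Permutation tests used scipy 1.17.1 and numpy 2.4.6. The scripts were tested on simulated data. Precision depends on the depth, 31483772 to 38038361 counts per library, and all groups follow the deposited treatment labels.

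The 7 genes and all lists were chosen with earlier results of these data known. Named were the 7 genes, list genes with an unadjusted p under 0.05, the most abundant gene of each pathway list (by FPKM) and marker list (by CPM, with 1 gene not reported here), marker genes with an unadjusted p under 0.05 and groups without overlap, and the 3 genes most alike each of the 7. The called markers that overlap were named after their values were seen. Promoter windows are from RefSeq (GRCm38.p6), another build than that of the counts. GC content was known for 92.7% of the genes averaging 10 or more counts. The study's own fold changes served only to compare signs, and protein sequences were not used here.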

Additional observations from a re-analysis of the deposited data

Results flagged for a closer look

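In each group of 4 libraries, the library farthest from the others was examined for the 7 genes and the 4 hippocampal and interneuron lists. Of 22 such groups, 2 had a library apart by Dixon's ratio, its distance from the nearest other library over the whole range of the group, and chance gives about 1.1. In the libraries labelled sesame oil, the CA1 list (mean log2(CPM + 0.5)) was 6.37 in HipR16 and 6.16 to 6.18 in the other 3, a ratio of 0.895. In the libraries labelled DHEA, the ventral hippocampus list was 4.81 in HipR3 and 4.34 to 4.40 in the other 3, a ratio of 0.862. None of the 7 opioid genes had a library apart by this measure.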

How the results depend on the processing

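The direction of Pdyn, Oprm1, Oprd1 and Oprl1 held in every alternative fit, and Oprd1 kept an unadjusted p under 0.05 in all of them. The other 6 genes stayed above 0.05 throughout. Oprm1 and Oprk1 had the lowest counts, 22 to 75 and 18 to 57. No paired analysis was possible because the labels carry no replicate numbers and tie no library of one group to a library of the other. Planned protein comparisons were not run. The cause of the changes below was not tested, other than that stricter filters test fewer genes and left-out libraries leave fewer samples.

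The number of genes that differed 2-fold or more at an unadjusted p under 0.05 was 442, and it was 164 in DESeq2, 284 with at least 10 counts, 62 with filterByExpr, 48 and 1 in limma on log2(FPKM + 0.1) and log2(FPKM + 1), and 361 to 512 without single libraries. The number with an adjusted p under 0.05 was 0, and 153 in DESeq2, 4 with robust moderation, 38 without HipR9 and HipR11 and 0 to 93 without single libraries, the highest without HipR7. At an unadjusted p under 0.05, 882 to 1891 genes were lower and 904 to 1776 higher without single libraries (1239 and 1332 with all). Of the 58 pathway genes, 5 to 14 were lower and 0 to 3 higher without single libraries, and 2 were higher without HipR9 and HipR11. The accession numbers of these 2 libraries stand apart from those of the other 6.

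The log2 fold change of Penk was -0.13 to 0.0663 without single libraries and 0.0140 without HipR9 and HipR11. That of Pnoc was -0.0531 to 0.14 without single libraries, -0.0192 on log2(FPKM + 0.1) and -0.0117 with a pseudocount of 1, and that of Oprk1 was -0.35 to 0.0847. The exact permutation p without single libraries was 0.514 to 1 for Penk, 0.286 to 1 for Pnoc (1 on the deposited FPKM), 0.4 to 0.914 for Oprk1 and 0.0286 to 0.0571 for Oprd1. The log2 difference of Oprd1 over Pnoc was 0.33 to 0.45 without single libraries, with adjusted exact permutation p of 0.0234 to 0.0703.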
